A study of Mus musculus with 44 samples.

Results

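HEC, the hepatic leukemia factor expressing cell, is a population of the postnatal mouse skeleton that is sorted by flow cytometry. Its mRNA is described here from 2 input libraries of the 44 libraries of the series. The 2 HEC libraries were chosen by their labels and compared with the 8 input libraries of 4 other populations that lie downstream of the skeletal stem cell, with 2 libraries each of PCP (pro-chondrogenic progenitor), THY (the Thy subpopulation), BLSP (B-cell lymphocyte stromal progenitor) and 6C3 (the 6C3 subpopulation). An input library holds the RNA of the sorted cells before enrichment with an antibody against m6A, so it measures mRNA levels. All 10 libraries came from long bones of untreated C57Bl6 mice at postnatal day 3, of wild type genotype by the labels, and the study uses Mettl3 fl/fl mice as its WT controls. The 5 populations share a gate that is CD45-, Ter119-, Tie2- and AlphaV+. HEC is Thy1-, 6C3+ and CD105-, and 6C3 is Thy1-, 6C3+ and CD105+, so that the gates of these populations differ in CD105 alone. PCP, THY and BLSP are Thy1+ and 6C3-, with CD105 and CD200 on PCP, CD105 without CD200 on THY, and no CD105 on BLSP.

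The surface of a joint is covered by cells that secrete lubricin, the product of Prg4, and that lie above the chondrocytes of the cartilage proper. Chondrocytes build a matrix of type II, IX and XI collagens and aggrecan under the transcription factors Sox9, Sox5 and Sox6. Osteoblasts build bone under Runx2 and Sp7, and fibroblasts and marrow stromal cells fill the tissue between. The HEC population is named after Hlf, a bZIP transcription factor of the PAR family, whose other members Dbp and Tef follow the circadian clock.

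The 10 libraries held between 19795666 and 44046651 counts. The mitochondrial share lay between 0.287% and 1.41%, and Col1a1, the main collagen gene of bone, took the largest share of every library, from 7.17% to 13.5%. Across the 19604 genes that passed the filter on low counts, log2 CPM (counts relative to library size) correlated at 0.970 between the HEC libraries. 6C3 replicate 2 correlated at 0.967 and 0.972 with the HEC libraries and at 0.957 with the other 6C3 library. These correlations are across genes, which are not independent replicates, and they describe a 6C3 library that lay nearer to HEC than to its own partner. For the comparison with 6C3 alone, the counts and the calls of the genes named are therefore also given with a library left out.

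The genes of the sorted antigens followed the gate. They were used in the sort and serve as a check only. Enpep, which encodes 6C3, stood at 57.7 and 55.0 CPM in HEC, 46.1 and 42.8 in 6C3, and at 3.89 to 9.08 in the other 6 libraries. Eng, which encodes CD105, stood at 33.0 and 33.1 CPM in HEC, 112 and 116 in 6C3, 18.2 and 26.3 in BLSP and 91.7 to 125 in PCP and THY. Thy1 was at 0.448 and 0.13 CPM in HEC against 18 to 35.5 in the Thy1+ populations. Cd200 stood at 61.2 and 69.5 CPM in HEC, 88.1 and 112 in PCP, and at 8.48 and 9.42 in THY, the population gated as negative for it. Itgav, the AlphaV integrin, lay between 64.2 and 119 CPM in all 10 libraries with overlapping groups. Ptprc, which encodes CD45, was at or below 0.864 CPM in every library, and Tek, which encodes Tie2, was at 0 and 0.162 CPM in HEC, 0 in both 6C3 libraries and 1.56 to 8.63 in the others. Of the 7 antigen genes 2 passed the test as higher in HEC (Enpep and Cd200) and 2 as lower (Thy1 and Eng), and the call of Cd200 was lost without either HEC library.

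Prg4 (ENSMUSG00000006014, chr1:150449412-150466165 on the minus strand of GRCm38), the gene of lubricin, is the marker gene of HEC used here, and it was highest in HEC. It reached 8030 and 6430 CPM in HEC. It stood at 1460 and 3610 CPM in 6C3, 232 and 272 in THY, 162 and 170 in PCP, and 113 and 111 in BLSP. Both HEC libraries lay above all 8 others, 6C3 came next, and neither the 6C3 nor the HEC range touched that of a Thy1+ population. Against the mean of the 4 populations Prg4 was 21.9-fold higher in HEC (log2 fold change 4.45, SE 0.21, adjusted p = 1.23e-07 by edgeR's quasi-likelihood test with Benjamini-Hochberg adjustment). Against 6C3 alone the log2 fold change was 1.51 (SE 0.32) and did not pass that test (adjusted p = 0.0979), while it was 2.31 without 6C3 replicate 2 (adjusted p = 3.32e-05) and 0.99 without 6C3 replicate 1 (adjusted p = 0.126). DESeq2's Wald test passed it, at a log2 fold change of 1.53 (adjusted p = 0.000781).

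Hlf, the gene that names the population, was not found higher in HEC. It stood at 5.50 and 3.43 CPM in HEC, 7.89 and 2 in PCP, 3.75 and 2.43 in THY, 4.21 and 6.86 in BLSP and 4.10 and 3.20 in 6C3. The groups overlapped, and the log2 fold change was 0.09 (SE 0.43, adjusted p = 0.953 by edgeR). The PAR bZIP and clock list holds Dbp, Tef, the Per and Cry genes, Arntl and Clock. Of its 16 genes none was higher and 1 was lower, beside 5.15% higher and 5.47% lower among all genes tested. The count of lower genes is thus near that share. The list median was −0.12 on the log2 scale beside −0.0118 for all genes tested. The lower gene was Nfil3, a bZIP repressor that binds the same sites as Hlf, at 23.4 and 27.6 CPM in HEC against 34.0 to 75.1 in the others (log2 fold change −0.91, SE 0.23), and it did not pass without either HEC library.

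The binding site of the PAR family, and the related cAMP response element, were looked up in the promoters of the genes that were higher in HEC, defined in the next paragraph. RefSeq promoters of GRCm38.p6, from 250 bases before to 50 bases after a start, were matched for 293 of those 393 genes and for 13124 of the genes tested. TTACGTAA, on both strands, was found for 1 of the 293 genes (0.341%) and for 0.145% of the genes tested. TTATGTAA was found for 2 (0.683%, against 0.739%), and the cAMP response element TGACGTCA for 10 (3.41%, against 3.28%). No motif contains another. A match is a description of the letters and not of binding. The matches to the PAR motifs are shown with 11 bases on each side, with the motif in capitals, because Hlf gave the population its name; the match of Marveld2 is printed on the strand of the gene, where it reads as the reverse complement.
Ak4, chr4:101419262-101419291, plus strand: cggctcccggcTTACGTAAgaagcagcgag
Ecm2, chr13:49504629-49504658, plus strand: cgtgcaatattTTATGTAAaaagcctatga
Marveld2, chr13:100617184-100617213, minus strand: ctggaaagtatTTACATAAtttatatcaaa
These genes were higher in HEC by 1.34 (Ak4), 1.17 (Ecm2) and 2.92 (Marveld2) on the log2 scale. Promoters of Prg4, Vit, Gdf5 and Gria1 were not used here.

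Against the mean of the 4 populations, 1010 genes were higher in HEC and 1072 were lower at an adjusted p under 0.05, which is 5.15% and 5.47% of the 19604 genes tested. HEC-high genes were taken as those that also had a log2 fold change above 1 and stood in both HEC libraries above all 8 others. There were 393 of them (2%), 362 protein coding, and 524 HEC-low genes by the mirrored rule (2.67%), 498 protein coding. Without asking for the test, both HEC libraries lay above all 8 others for 5.95% of genes and below them for 7.08%. The median log2 fold change was 1.70 over HEC-high and −1.75 over HEC-low genes, values that the rule itself sets. At the threshold, Tmem198 and 1500015O10Rik lay just inside at log2 fold changes of 1, and Ndrg2 just outside at 0.999. With the scaling by library size alone, the share of called genes that were higher in HEC was 32.0% in place of 48.5%. Without HEC replicate 2 the calls were 442 higher and 427 lower, and without HEC replicate 1 they were 478 and 453. With the 8 other libraries taken as 1 group, so that differences among the populations enter the spread, edgeR called no gene in either direction, and 1048 and 1855 genes had an unadjusted p under 0.05. In bulk RNA, fewer cells of a type and less RNA per cell cannot be told apart.

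**Figure D1:**
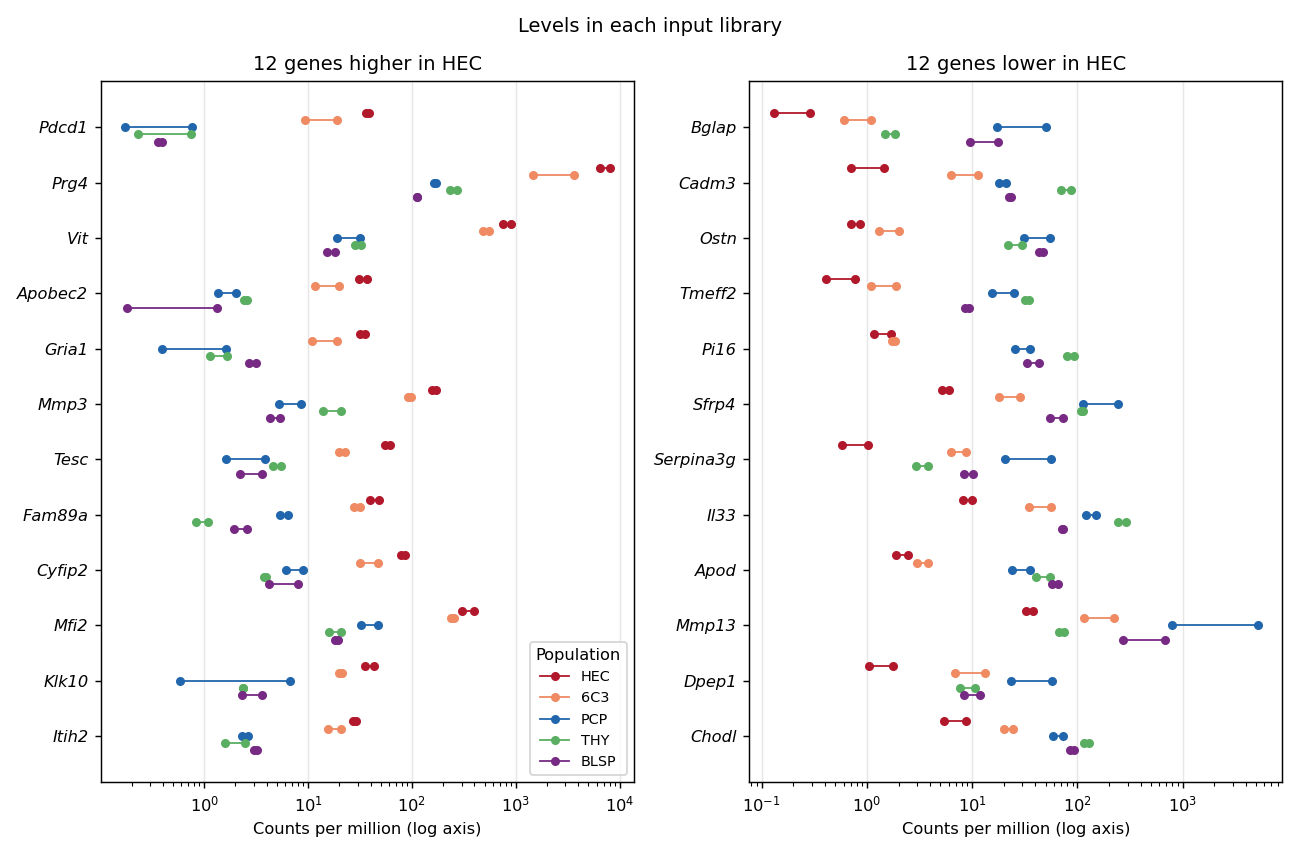
CPM on a log axis of the 12 HEC-high and the 12 HEC-low protein-coding genes with the largest fold change and a mean of at least 10 CPM, each point a library and each line joining the 2 libraries of a population. The rule that chose the genes places the HEC points highest on the left and lowest on the right. On the left the 6C3 points come next, as for Prg4 with 8030 and 6430 CPM in HEC and 1460 and 3610 in 6C3.

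The 12 HEC-high genes with the largest fold change included secreted and matrix proteins beside Prg4. Vit, which encodes the matrix protein vitrin, stood at 759 and 892 CPM in HEC, 485 and 551 in 6C3 and 15.1 to 32.0 in the other 6 libraries, and was 16.3-fold higher (log2 fold change 4.03, SE 0.16). Mmp3, the matrix protease stromelysin 1, stood at 170 and 155 CPM in HEC, 97.6 and 91.9 in 6C3 and 4.35 to 20.9 elsewhere (log2 fold change 3.41, SE 0.18). Klk10, a secreted serine protease of the kallikrein family, stood at 42.8 and 35.4 CPM in HEC, 21.2 and 20 in 6C3 and 0.589 to 6.63 in the others. Itih2, a heavy chain of the inter-alpha-trypsin inhibitor that binds hyaluronan, was at 27.2 and 29.1 CPM in HEC and 15.4 and 20.8 in 6C3, with 1.58 to 3.23 in the rest. For these 4 genes HEC and 6C3 both lay apart from the Thy1+ populations.

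Other genes of the 12 encode receptors and intracellular proteins. Pdcd1, the immune checkpoint receptor PD-1, had the largest log2 fold change of the 12, at 5.18 (SE 0.34, adjusted p = 1.80e-06 by edgeR). It stood at 38.3 and 36.3 CPM in HEC, 9.42 and 19.2 in 6C3 and at most 0.769 in PCP, THY and BLSP. PD-1 is best known from blood cells. Of 13 blood cell genes tested none was higher or lower in HEC, where the sum of that list was mostly hemoglobin. Ptprc was at 0.0814 and 0.0648 CPM in HEC. Which cells held the Pdcd1 mRNA was not tested. Apobec2, a member of the cytidine deaminase family known from muscle, stood at 37.0 and 30.6 CPM in HEC, 11.6 and 20 in 6C3 and 0.181 to 2.59 elsewhere (log2 fold change 3.68, SE 0.35). Gria1, a subunit of the AMPA glutamate receptor, was at 31.6 and 35.5 CPM in HEC, 10.8 and 18.9 in 6C3 and 0.393 to 3.13 in the others.

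The remaining members of the 12 had the same order of populations. Tesc, an EF-hand calcium-binding protein, stood at 60.9 and 54.7 CPM in HEC, 19.8 and 22.7 in 6C3 and 1.61 to 5.54 in the others. Cyfip2, a subunit of the WAVE complex that controls actin, was at 77.8 and 84.8 CPM in HEC and 31.3 and 46.9 in 6C3. Mfi2, which encodes melanotransferrin, stood at 305 and 400 CPM in HEC, 239 and 253 in 6C3 and 15.8 to 47.2 elsewhere, and Fam89a at 39.3 and 48.1, 31.8 and 27.9, and 0.832 to 6.39. In every one of the 12 genes the 6C3 libraries lay above the Thy1+ populations without overlap. That HEC lay above 6C3 was set by the rule for HEC-high genes.

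Prg4 and Vit belong to a list of 23 genes of the joint surface and its lining. Of these, 8 were higher in HEC and 2 lower, with a list median of 0.46 on the log2 scale. Cilp, the cartilage intermediate layer protein, stood at 2280 and 2840 CPM in HEC, 792 and 1110 in 6C3, 425 and 327 in PCP, 547 and 518 in THY and 108 and 116 in BLSP (log2 fold change 2.74, SE 0.15). Gdf5, the growth factor expressed where joints form, was at 53.1 and 57.1 CPM in HEC, 28.8 and 42.2 in 6C3 and 4.62 to 8.24 elsewhere (2.50, SE 0.18). Both genes stood in HEC above every other library. Erg, an ETS transcription factor of articular chondrocytes, was at 62.6 and 62.2 CPM in HEC, 52.8 and 44.9 in 6C3 and 7.67 to 15.4 in the rest (1.87, SE 0.20). Clu, Cilp2 and Creb5 were the other higher members. Osr1 and Cd55 were lower, Cd55 at 19.2 and 14.4 CPM in HEC against 103 and 89.0 in THY, and 13 members did not pass. Without the THY libraries neither Osr1 nor Cd55 passed. The calls of Creb5 and Osr1 were lost without either HEC library, that of Cilp2 without HEC replicate 1 and that of Cd55 without HEC replicate 2.

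Genes of the cartilage matrix were higher in HEC, 17 of the 22 tested, with 1 lower and a list median of 1.41. The sum of the list was 95900 to 121000 CPM in HEC, 53800 to 106000 in 6C3, and 11300 to 27200 in PCP, THY and BLSP, so that the HEC and 6C3 sums overlapped. Col2a1, the main collagen of cartilage, stood at 66700 and 87200 CPM in HEC, 34900 and 75600 in 6C3, 13700 and 16400 in PCP, 11000 and 13100 in BLSP and 4730 and 4230 in THY (log2 fold change 2.4, SE 0.21). Col9a1, a collagen on the surface of its fibrils, was higher by 2.35 (SE 0.17) and Col11a2, a collagen of their core, by 1.77 (SE 0.18). Cytl1, a small secreted protein of chondrocytes, stood at 852 and 714 CPM in HEC, 201 and 386 in 6C3 and 117 to 159 elsewhere, so that here 6C3 lay nearer to the Thy1+ populations.

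The transcription factors of the chondrocyte were higher as well. Sox9 stood at 5840 and 6440 CPM in HEC, 4120 and 5690 in 6C3 and 1520 to 2280 in the others (log2 fold change 1.37, SE 0.17), and Sox5 at 167 and 182, 136 and 140, and 36.7 to 57.1 CPM (1.5, SE 0.14). Sox6 was higher by 1.02 (SE 0.18). Sfrp5, a secreted Wnt antagonist, was the member that was lower, and its level was led by BLSP at 48.6 and 40.9 CPM; without HEC replicate 1 it did not pass. The members that did not pass were Matn1, Matn3, Epyc and Pthlh; Matn1 stood at 1.99 and 5.08 CPM in HEC within the range of the others, 1.27 to 23.1. Snorc and Cnmd were not tested.

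Genes of late chondrocytes showed no such rise. Of 8 genes of hypertrophic chondrocytes none was higher and 2 were lower, with a median of −0.76. Mmp13, the collagenase of hypertrophic cartilage and osteoblasts, stood at 38.2 and 32.6 CPM in HEC, 225 and 117 in 6C3, 74.9 and 67.0 in THY, 273 and 686 in BLSP and 5240 and 797 in PCP (log2 fold change −3.36, SE 0.62). Panx3, a channel protein of the same cells, was at 1.06 and 2.14 CPM in HEC and up to 58.6 in PCP, and did not pass without HEC replicate 1. Col10a1, the defining collagen of the stage, stood at 1.47 and 0.0648 CPM in HEC and 0.0693 to 13.2 in the others and did not pass.

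Of 17 genes of osteoblasts and bone matrix 8 were lower in HEC and 2 higher, with a median of −1.01. Bglap, which encodes osteocalcin, stood at 0.285 and 0.13 CPM in HEC, 0.604 and 1.09 in 6C3, 1.48 and 1.85 in THY, 9.49 and 17.6 in BLSP and 50.6 and 17.1 in PCP (log2 fold change −4.64, SE 0.60). Bglap and Bglap2, which was lower as well, are near-identical copies, and the split of reads between them is uncertain. The osteoblast transcription factors were lower too, Sp7 by 2.13 (SE 0.27) and Runx2 by 1.66 (SE 0.21) on the log2 scale. Runx2 stood at 12.8 and 17.0 CPM in HEC and 15.7 and 24.5 in 6C3, which overlap, and at 35.5 to 94.8 in the Thy1+ populations. Dlx3 and Smpd3 were the higher members, Dlx3 at 38.3 and 33.2 CPM in HEC, 34.0 and 27.8 in 6C3 and 3.42 to 13.7 elsewhere. Without HEC replicate 2, Smpd3, Bglap2, Dlx5 and Dmp1 did not pass, and Dmp1 did not pass without HEC replicate 1 either. Col1a1, at 86800 and 91000 CPM in HEC and 68300 to 149000 in the others, did not pass (log2 fold change −0.08, SE 0.16).

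**Figure D2:**
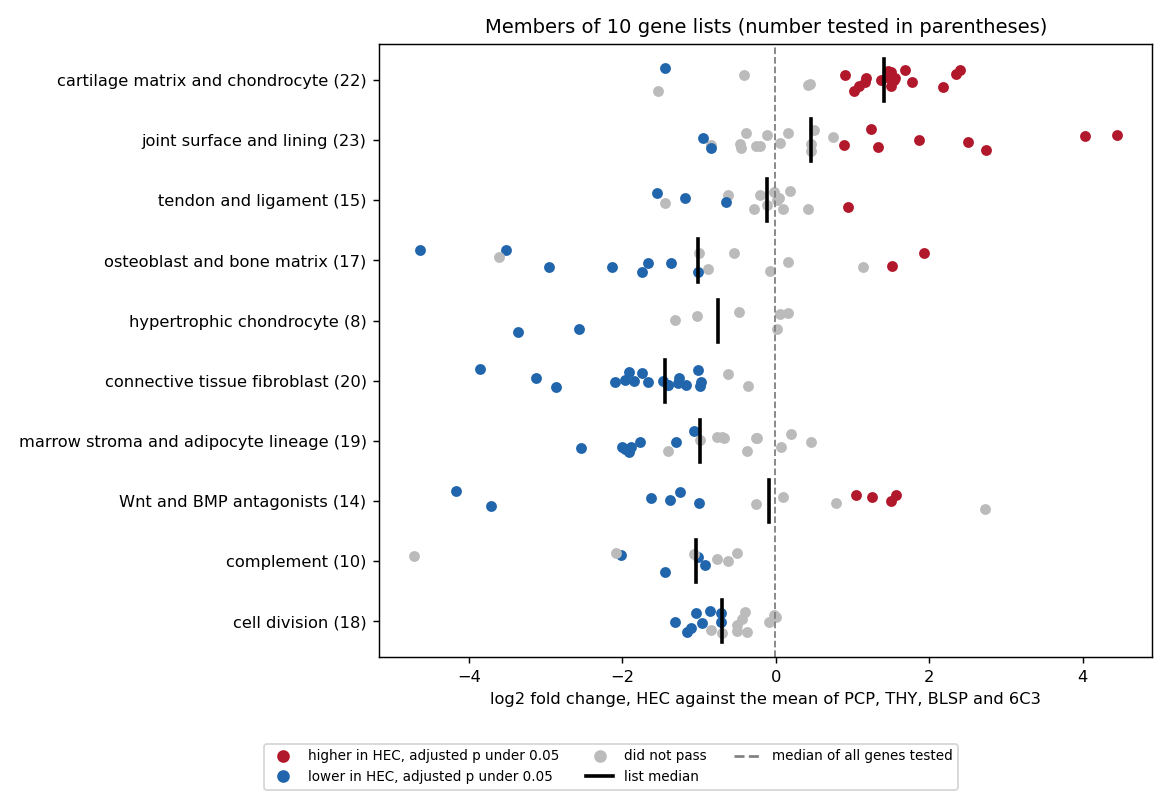
log2 fold change of HEC against the mean of the 4 populations for each member of 10 gene lists, red where higher and blue where lower at an adjusted p under 0.05 and grey where the test was not passed, with a black bar at the list median and a dashed line at the median of all genes tested. In the cartilage list 17 of 22 members are red, and in the fibroblast list 18 of 20 are blue; the grey points farthest left in the complement and osteoblast lists are C7 and Mepe, which had 0 counts in HEC, so that their fold change is no measure of size.

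Fibroblast genes were lower in HEC almost throughout. Of 20 connective tissue fibroblast genes 18 were lower in HEC and none higher, with a median of −1.44, and the sum of the list was 11400 to 12200 CPM in HEC, 15400 to 16800 in 6C3 and 23000 to 40500 in the Thy1+ populations. Pi16, which marks a fibroblast type found in many tissues, stood at 1.71 and 1.17 CPM in HEC, 1.75 and 1.84 in 6C3 and 25.6 to 92.5 in the others (log2 fold change −3.85, SE 0.27). Mfap5, a protein of microfibrils, was at 46.7 and 30.5 CPM in HEC, 91.9 and 78.1 in 6C3 and 232 to 1560 elsewhere (−3.13, SE 0.25). Dpp4 was lower by 2.86 (SE 0.54) and Igfbp6 by 2.09 (SE 0.27). Pdgfra and Dcn did not pass. The edgeR call of Twist2, another member, was lost with 15 of the alternative settings. The calls of Gsn, Clec3b and Pdpn were lost without either HEC library, and that of Cd34 without HEC replicate 2. Without the THY libraries Dpp4 (log2 fold change −1.99, adjusted p = 0.092 by edgeR), Cd34, Gsn and Clec3b did not pass.

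Of 19 genes of marrow stroma and the adipocyte lineage 8 were lower in HEC and none higher, with a median of −0.99. Cxcl12, the chemokine that retains blood stem cells in the marrow, stood at 118 and 110 CPM in HEC, 150 and 186 in THY, 237 and 387 in BLSP, 439 and 479 in 6C3, and 1080 and 2270 in PCP (log2 fold change −1.97, SE 0.28). Kitl, the ligand of the receptor Kit, was at 16.2 and 13.7 CPM in HEC, 31.6 and 30.7 in 6C3 and 47.1 to 142 in the rest (−1.91, SE 0.19). Lpl, lipoprotein lipase, stood at 20.5 and 18.7 CPM in HEC against 63.0 to 288 in the 8 others (−2.54, SE 0.20). Hp was lower by 2.01 (SE 0.50), although its HEC libraries, at 10.3 and 8.68 CPM, lay above those of THY, and it did not pass without either HEC library. Without HEC replicate 1 the count of lower members was 4, and without HEC replicate 2 it was 5.

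Most tendon genes, 11 of 15, did not pass. Of the 15, 1 was higher (Fmod, fibromodulin, at 7050 and 8080 CPM in HEC against 3110 to 6600). The 3 lower genes were Tnmd, Tnc and Kera, and the list median was −0.12. Among all genes tested 5.15% were higher and 5.47% lower, so the count of higher genes is near that share. Against 6C3 alone no member passed. Kera, the corneal and tendon proteoglycan keratocan, stood at 45.7 and 46.5 CPM in HEC, 85.2 and 86.7 in 6C3 and up to 310 in THY (log2 fold change −1.55, SE 0.19). Scx, the transcription factor of tendon cells, stood at 54.9 and 40.3 CPM in HEC within the range of the others, 8.33 to 73.3. The call of Tnc was lost without either HEC library, and those of Fmod and Tnmd without HEC replicate 2.

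Secreted antagonists of Wnt and BMP signals moved in both directions, with 4 of 14 higher and 6 lower. Wif1, a Wnt antagonist, stood at 2930 and 3770 CPM in HEC, 3810 and 3680 in 6C3 and 627 to 1000 in the Thy1+ populations (log2 fold change 1.57, SE 0.15), so that HEC and 6C3 overlapped. Grem1, a BMP antagonist, stood at 82.4 and 85.1 CPM in HEC and 21.6 to 37.7 in the other 8 libraries, 6C3 included (1.5, SE 0.20). Sfrp4, a further Wnt antagonist, was at 5.17 and 6.09 CPM in HEC, 28.8 and 17.9 in 6C3 and 54.9 to 246 elsewhere (−3.71, SE 0.34), and Chrdl1 was lower by 1.63 (SE 0.26). The list median was −0.09, or −0.17 with Dkk1, at 0 in 6C3, set to a floor of 3 counts over the 2 libraries.

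The rest of the 12 HEC-low genes with the largest fold change fall outside these lists. Il33, an alarmin cytokine, stood at 9.97 and 8.13 CPM in HEC, 56.4 and 34.6 in 6C3, 70.9 and 73.8 in BLSP, 120 and 149 in PCP and 289 and 244 in THY (log2 fold change −3.53, SE 0.25, adjusted p = 2.41e-06 by edgeR). Cadm3, a cell adhesion molecule, was at 1.47 and 0.712 CPM in HEC and 6.33 to 88.0 in the others (−4.46, SE 0.35). Ostn, the peptide osteocrin of bone and muscle, stood at 0.855 and 0.712 CPM in HEC, 2.04 and 1.30 in 6C3 and 22.1 to 54.5 in the Thy1+ populations (−4.44, SE 0.34). HEC lay below every other library for all 3, which the rule for HEC-low genes requires.

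Apod, a lipid carrier of the lipocalin family, stood at 2.44 and 1.91 CPM in HEC, 3.79 and 2.97 in 6C3 and 23.8 to 65.2 elsewhere (log2 fold change −3.42, SE 0.27). Tmeff2, a transmembrane protein with follistatin-like domains, was lower by 4 (SE 0.37) and Chodl, a C-type lectin, by 3.16 (SE 0.24). Serpina3g, an intracellular protease inhibitor, and Dpep1, a membrane dipeptidase, complete the 12, with log2 fold changes of −3.63 (SE 0.44) and −3.31 (SE 0.45). These genes differ in how 6C3 behaves: for Apod it was close to HEC, and for Serpina3g and Dpep1 it stood among the Thy1+ populations.

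Genes of cell division were lower in HEC, 8 of 18 with none higher, and the median was −0.70. Ccnb1, cyclin B1, stood at 20.1 and 15.9 CPM in HEC and 33.7 to 62.7 in the 8 others (log2 fold change −1.32, SE 0.19), and Birc5, survivin, at 15.8 and 15.3 against 24.8 to 42.2 (−1.10, SE 0.18). Bub1 was lower by 1.16 (SE 0.24) and Ccna2 by 1.04 (SE 0.21). Mki67 stood at 22.6 and 17.8 CPM in HEC and 21.9 to 47.9 in the others and did not pass. The count of lower members was 3 without either HEC library in turn, and 5 without the THY libraries. Of 10 complement genes 4 were lower, with Serping1, the C1 inhibitor, at 65.4 and 40.7 CPM in HEC against 84.1 to 362 (−2.02, SE 0.25). The complement median was −1.04, and C1ra and C1s1 were also lower, with both calls lost without HEC replicate 2 and that of C1ra also without HEC replicate 1.

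Genes of other cell types, which a sort could carry along, were counted in the same way. Their counts stand beside 5.15% of all genes tested called higher and 5.47% called lower. Of 7 Schwann cell genes 3 were lower in HEC, and their sum was 6.76 to 10 CPM in HEC, 3.72 to 6.51 in 6C3, 36.0 to 38.8 in THY, 130 to 296 in PCP and 1440 to 1480 in BLSP. Mbp, a myelin protein, stood at 2.44 and 2.88 CPM in HEC and 722 and 702 in BLSP. The part of the Schwann cell genes in the comparison with BLSP was not tested. Of 9 endothelial genes 1 was higher (Flt1, at 76.0 and 77.4 CPM in HEC against 13.5 to 73.9) and 1 lower (Egfl7, led by PCP at 36.9 and 20.5), while Pecam1 stood at 0.855 and 2.75 CPM in HEC and Cdh5 at 0 and 0.324. The sum of the list was 119 to 123 CPM in HEC and 206 to 255 in PCP, and most of the HEC sum was Flt1.

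Of 9 mural cell genes 3 were higher (Myh11, Cnn1 and Cspg4) and 1 lower, with a sum of 1150 to 1850 CPM in HEC and 956 to 3220 in the others. Myh11, smooth muscle myosin, stood at 183 and 75.1 CPM in HEC and 31.7 to 80.0 elsewhere, so that 1 HEC library lay within the others. Without HEC replicate 1 none of the 3 passed (Myh11 0.56, adjusted p = 0.592; Cnn1 0.70, adjusted p = 0.552; Cspg4 0.90, adjusted p = 0.0796, log2 fold changes by edgeR). The lower gene was Rgs5 at 134 and 112 against 160 to 2240. Of 13 blood cell genes none passed in either direction, and their sum, 65.3 to 159 CPM in HEC and 20.7 to 154 in the others, was mostly hemoglobin in HEC, with Hba-a1 at 57.8 and 23 CPM and Laptm5 at 0.488 and 0.259 in HEC. Of 10 skeletal muscle genes none passed, with sums of 9.36 to 10.1 CPM in HEC. Of 5 osteoclast genes 1 was lower, Mmp9, at 4.32 and 3.17 CPM in HEC and 251 and 111 in PCP, and it did not pass without either HEC library. Of 18 immediate early and heat shock genes, which respond to dissociation, 1 was higher, Ier3, with a median of −0.01, and that call was lost with 11 of the alternatives.

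**Figure D3:**
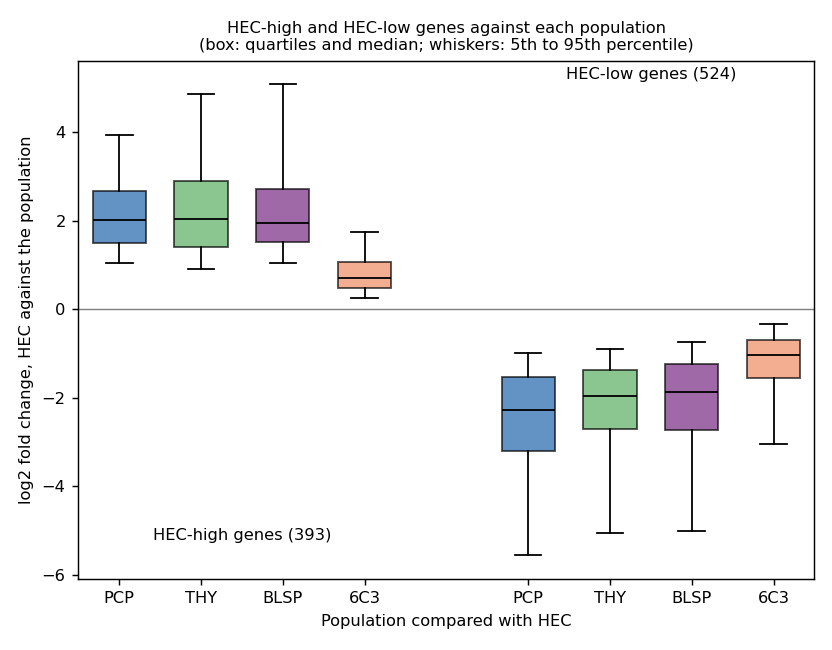
log2 fold change of HEC against each population for the 393 HEC-high genes (left) and the 524 HEC-low genes (right), with boxes at the quartiles and median and whiskers from the 5th to the 95th percentile. The median of HEC-high genes is 2.01 against PCP, 2.03 against THY, 1.95 against BLSP and 0.692 against 6C3.

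Against single populations, which share the HEC libraries, HEC differed from PCP in 1003 genes higher and 1454 lower (5.12% and 7.42% of those tested), from THY in 881 and 1044 (4.49% and 5.33%) and from BLSP in 974 and 1080 (4.97% and 5.51%). From 6C3 it differed in 2 genes higher and 27 lower (0.0102% and 0.138%), with 855 and 1260 at an unadjusted p under 0.05. The median log2 fold change of HEC-low genes was −2.28 against PCP, −1.96 against THY, −1.86 against BLSP and −1.04 against 6C3. Of the 393 HEC-high genes 1 passed against 6C3 alone, and 111 had a log2 fold change above 1 there. Of the 524 HEC-low genes 22 passed against 6C3, and 277 lay beyond 1 in size. The count against 6C3 was not stable. It moved markedly in 8 of the fits that each left out 1 library, those without an HEC, a PCP or a 6C3 library among them. It was largest in both directions without 6C3 replicate 2, and the fewest lower genes were called without HEC replicate 2. DESeq2's Wald test gave 74 and 221.

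Cilp was 1 of the 2 genes higher in HEC than in 6C3. With 2280 and 2840 CPM in HEC and 792 and 1110 in 6C3, it was 2.69-fold higher (log2 fold change 1.43, SE 0.23, adjusted p = 0.0321 by edgeR). Its call depended on single libraries: it was lost without 6C3 replicate 1 (adjusted p = 0.0838) and without HEC replicate 1 or 2 (0.147 and 0.189), and held without 6C3 replicate 2 (log2 fold change 1.69, adjusted p = 0.000663). It was also lost without THY replicate 1 or 2 and in the fit over 16 libraries (adjusted p = 0.0654).

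**Figure D4:**
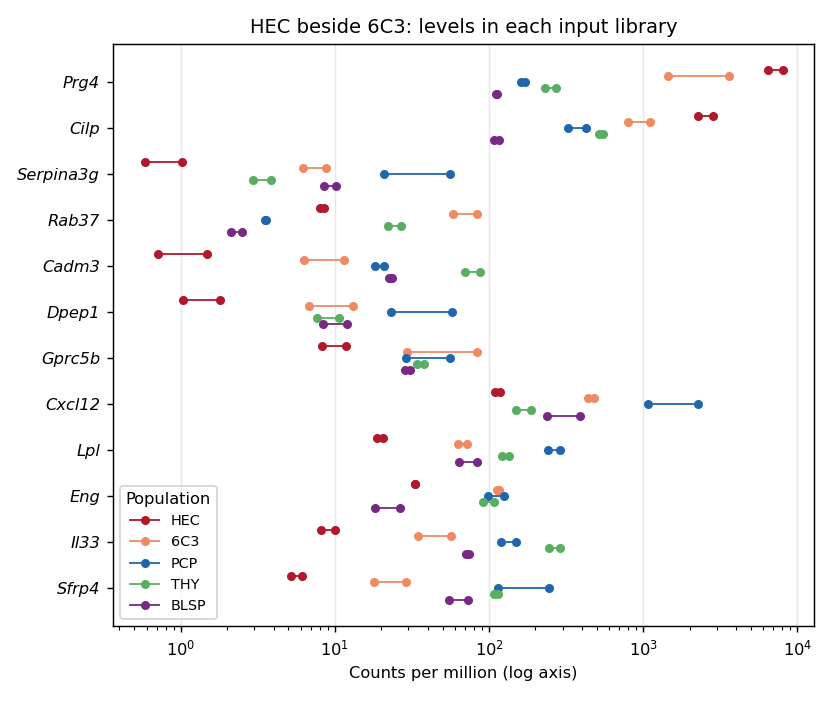
CPM on a log axis for Prg4, for Cilp and for 10 genes lower in HEC than in 6C3, each point a library and each line joining the libraries of a population. Cxcl12, Lpl, Il33 and Sfrp4 lie lowest in HEC, while Rab37 lies highest in 6C3 with 84.0 and 58.8 CPM and Prg4 differs between the 6C3 libraries, with 1460 and 3610 CPM.

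The 27 genes lower in HEC than in 6C3 held the antigen gene Eng, by 1.79 on the log2 scale (SE 0.23), 2 of the 19 marrow stroma genes and 0 of the 20 fibroblast genes. The largest changes among genes of at least 10 CPM were in Serpina3g, Rab37, Cadm3, Dpep1 and Gprc5b. Rab37, a small GTPase of secretory vesicles, stood at 8.06 and 8.45 CPM in HEC, 84.0 and 58.8 in 6C3, 26.8 and 22.1 in THY and 2.12 to 3.55 in PCP and BLSP (log2 fold change −3.11, SE 0.26, adjusted p = 0.000223 by edgeR). It lay in HEC between PCP and BLSP on the lower side and THY on the upper. Serpina3g stood at 1.02 and 0.583 CPM in HEC and 8.78 and 6.25 in 6C3 (−3.25, SE 0.48), and Cadm3 at 1.47 and 0.712 against 11.4 and 6.33 (−3.05, SE 0.36). Gprc5b, an orphan receptor, was lower by 2.50 (SE 0.43), with 6C3 libraries at 83.7 and 29.3 CPM. Other genes of the 27, chosen here after their values were seen, were Cxcl12 (−2, SE 0.32), Lpl (−1.79, SE 0.21), Il33 (−2.33, SE 0.26), Sfrp4 (−2.05, SE 0.34), the transferrin gene Trf (−2.05, SE 0.34) and the coagulation factor gene F13a1 (−2.30, SE 0.26), which stood at 26.6 and 32.3 CPM in HEC and 161 and 129 in 6C3. All 29 genes called in either direction passed without 6C3 replicate 2, and 13 of them passed without 6C3 replicate 1, where Dpep1, Gprc5b, Sfrp4 and Trf did not. Without HEC replicate 1, 3 passed, namely Rab37, Cadm3 and Il33, and without HEC replicate 2 Rab37 alone passed. With an HEC library left out, Serpina3g had adjusted p-values of 0.139 and 0.142, and Cadm3 had 0.077 without HEC replicate 2.

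The genes whose log2 CPM followed Prg4 most closely over the 10 libraries, among genes of at least 10 CPM, were Cox4i2 (r = 0.996), Clint1 (r = 0.992) and Tmc6 (r = 0.990). Cox4i2, an isoform of a cytochrome c oxidase subunit, stood at 155 and 135 CPM in HEC, 70.9 and 101 in 6C3 and 22.4 to 34.4 in the other 6 libraries. Clint1, a clathrin adaptor, was at 59.1 and 51.2 CPM in HEC, 44.7 and 47.4 in 6C3 and 28.0 to 31.2 elsewhere, and Tmc6 at 98.5 and 93.4, 58.8 and 77.7, and 30.1 to 37.3. The 10 libraries fall into 5 populations, so these correlations describe the order of the populations more than the spread within them.

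In the m6A IP libraries, made from sorted cells of the same batches and not used to choose the genes, the same contrast called 535 genes higher and 411 lower of 22285, or 2.40% and 1.84%. Of the 393 HEC-high genes 385 were tested there, and 194 were higher (50.4%) and none lower, with a median log2 fold change of 1.5. Of the 524 HEC-low genes 521 were tested, and 181 were lower (34.7%) and none higher, with a median of −1.39. Prg4 stood at 15400 and 15400 CPM in the HEC IP libraries, 7830 and 9610 in 6C3, 405 and 399 in PCP, 389 and 551 in THY and 224 and 268 in BLSP (log2 fold change 4.27). Cilp had 1250 and 1200 CPM in HEC and 466 and 404 in 6C3 in the IP libraries (2.78). For Pi16, which was HEC-low in the input, the IP value was −3.01 and did not pass (adjusted p = 0.0757 by edgeR). A level in an IP library reflects both the mRNA and its m6A.

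The 6 input libraries of SSC (skeletal stem cell), pre-BCSP and BCSP (bone, cartilage and stromal progenitor) lie upstream. They did not enter the fit that chose the HEC-high and HEC-low genes, only the alternative fit over 16 libraries. They gave a further comparison without a test. HEC lay above all 6 for 231 of the 393 HEC-high genes and below all 6 for 40, and the groups overlapped for 122; over all genes tested the counts were 4101, 3331 and 12172. For the 524 HEC-low genes HEC lay above all 6 for 103 and below all 6 for 100, and the groups overlapped for 321. The 6 upstream libraries lay below all 8 other downstream libraries for 242 of the 524, and for 2078 of all genes tested. Both sets were chosen by the same HEC and downstream values, which favors the counts of 231 and 242. Prg4, on a scale set over 16 libraries, stood at 7780 and 6190 CPM in HEC, 1640 and 1950 in SSC, 3140 and 3170 in pre-BCSP and 1200 and 1480 in BCSP. Cilp was at 2200 and 2740 CPM in HEC and 70.5 to 348 upstream.

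Other genes that were higher in HEC among the downstream populations, HEC-high or not, were as high or higher upstream. Cytl1 stood at 825 and 688 CPM in HEC and 2550 to 4400 upstream, and Clu at 369 and 343 against 419 to 923. Col2a1 was not HEC-high, since its HEC and 6C3 libraries overlapped. It was at 64600 and 84000 CPM in HEC and 71200 to 85700 in the 6 upstream libraries, so that these groups overlapped too. Mmp3 varied upstream between libraries of 1 population, from 37.9 to 1120 CPM in BCSP. Il33, HEC-low among the downstream populations at 9.66 and 7.82 CPM on this scale, stood at 0.473 to 7.14 CPM upstream, below both HEC libraries, and Pi16 at 0.203 to 1.93.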

How the data were processed

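SLIM-seq libraries (m6A immunoprecipitate and input) were made by the authors from populations sorted from mice at postnatal day 3, with 2 libraries per population and kind. Reads were trimmed with fastp 0.20.1, aligned to GRCm38 with HISAT2 2.2.1 and counted with featureCounts 2.0.1 per the labels, and the authors deposited whole-number counts per gene without normalization. The library method does not mark strand, so overlapping genes on opposite strands cannot be told apart. Other deposited files hold the authors' own comparison of Mettl3 knockout and WT SSC (log2 fold changes and p-values by DESeq2) and were not used.

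Of 46959 entries, 128 named 1-Mar or 2-Mar (at most 0.390% of a library) were left out, and 46831 remained. Counts of 10 input libraries were fitted in 1 model with edgeR 4.0.16 under R 4.3.3, using filterByExpr, TMM scaling and the quasi-likelihood F test, with Benjamini-Hochberg adjustment over the 19604 genes tested. HEC was set against the mean of the PCP, THY, BLSP and 6C3 coefficients, and against each. An SE was taken as the size of the log2 fold change over the square root of its F, and 2 was the prior count in log2 CPM. CPM are relative to the library and are not per length, so levels are compared within a gene only. Positions and gene types are from GENCODE vM21. The IP libraries were fitted apart.

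Genes were named by rule: Prg4, Hlf and the sort antigens; the 12 HEC-high and 12 HEC-low protein-coding genes, and the 5 in each direction against 6C3, of largest fold change at a mean of at least 10 CPM; up to 4 called members of each gene list; and the 3 genes most like Prg4. A few genes that the rule names are not reported here. Members of lists that did not pass, and genes named after their values were seen, are given by their levels. The population, its marker, the gene lists and the tests were chosen with earlier results of these data known.

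The study describes its replicates as biologically independent, while the labels do not say whether they came from separate animals, and p-values measure the spread between these libraries. Counts of replicates differed by more than sampling noise (19.5 to 136 as chi-square over its degrees of freedom). The labels give 1 batch. Replicate numbers were not taken as pairs across populations, since replicate differences of populations correlated at −0.201 to 0.109. In libraries simulated for HEC against the mean of 4, 100% of 111 genes changed by 2 on the log2 scale and 62.9% of 89 changed by 1 were recovered among 18648 genes, with 12 unchanged genes called. Alternatives were DESeq2 1.42.0, other scalings, filters and thresholds, a fit over 16 libraries, 2 groups, a replicate block, and leaving out each library or population. Figures were drawn with matplotlib 3.10.9.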

Additional observations from a re-analysis of the deposited data

How the results depend on the processing

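With 2 libraries per population, the counts of called genes moved with single libraries. Over the results for named genes, 3040 of the values under alternatives kept their direction and side of the threshold, 352 lost the call, 12 gained it and 6 changed sign. The sign changes were Hlf (−0.07 with library size alone, −0.29 without HEC replicate 1, −0.08 without PCP replicate 2, within a range of −0.29 to 0.42 over single libraries left out, and −0.06 without the THY libraries), Cd200 (−0.01 without the THY libraries) and Rab37 (0.50 without the 6C3 libraries). Library size alone moved the median log2 fold change of all genes from −0.012 to −0.179.

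Leaving out 1 library at a time gave 442 to 1478 genes higher and 427 to 1409 lower against the mean of 4, 318 to 614 HEC-high genes (614 without 6C3 replicate 2, of which 388 were among the 393) and 351 to 705 HEC-low genes. It gave 505 to 1342 higher and 799 to 1921 lower than PCP, 437 to 1174 and 513 to 1374 than THY, 463 to 1267 and 581 to 1425 than BLSP, and 0 to 680 and 1 to 720 than 6C3; a population left with 1 library is assumed to vary like the others. Of the lists, 14 to 17 cartilage and 6 to 9 joint surface genes were higher, and 13 to 19 fibroblast, 4 to 9 marrow stroma, 5 to 8 osteoblast and 3 to 10 cell division genes lower; alternatives for list counts were added after the data were seen.

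Against 6C3, DESeq2 gave 74 higher and 221 lower, no filter 200 and 450, and the fit over 16 libraries 0 and 2 (707 and 954 at an unadjusted p under 0.05). That fit gave 640 lower than the mean of 4, 669 than THY and 678 than BLSP. Library size alone gave 584 higher and 2087 lower than BLSP. With the 8 others as 1 group edgeR gave 0 higher, 0 lower, 0 HEC-high and 0 HEC-low genes and 0 in each of the 6 lists, with 1048 and 1855 genes at an unadjusted p under 0.05. With an adjusted p under 0.01 there were 593 higher and 583 lower (512 and 821 for PCP, 481 and 582 for THY, 526 and 609 for BLSP, 0 and 7 for 6C3, where 855 and 1260 genes had an unadjusted p under 0.05), 5 marrow stroma and 5 cell division genes. With an unadjusted p under 0.05 and a log2 fold change beyond 0.5 there were 1734 and 2071 (1986 and 2754, 1886 and 2141, 1878 and 2313, 825 and 1215), 824 HEC-high and 1046 HEC-low genes. Without the 6C3 libraries there were 1709 and 1820, with 877 HEC-high (389 of the 393) and 1170 HEC-low (518 of the 524) genes; without the BLSP libraries 669 were higher, and without THY 5 cell division genes were lower. The causes were not tested.

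Whether the replicate numbers pair the populations is not known from the labels, and replicate differences correlated at −0.201 to 0.109; with the replicate block there were 954 higher and 1008 lower, 379 HEC-high and 504 HEC-low genes, and among named genes Gprc5b against 6C3 (−2.39), Twist2 (−1.24), Esm1 (−1.06) and Dmp1 (−1.01) lost their calls.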

Other observations

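Some HEC-high and HEC-low genes outside the lists share a function. They were picked after their values were seen, so they carry no test and are given as levels. Among them were some enzymes that build or sulfate chondroitin chains. Chst3, a chondroitin 6-sulfotransferase, was at 201 and 195 CPM in HEC, 48.3 and 153 in 6C3 and 17.8 to 40.1 in the Thy1+ populations. Chst11, a chondroitin 4-sulfotransferase, was at 52.8 and 62.3 CPM in HEC, 17.5 and 51.0 in 6C3 and 7.76 to 17.0 in the Thy1+ populations. Xylt1, which starts the chains, stood at 42.2 and 32.9 CPM in HEC, 19.4 and 27.0 in 6C3 and 10.3 to 19.3 in the Thy1+ populations. The sulfate transporter Slc26a2 stood at 137 and 150, 87.4 and 119, and 41.9 to 55.0 CPM in the same order. Chst2, a sulfotransferase of keratan sulfate, went the other way, at 7.98 and 9.78 CPM in HEC and 19.0 to 62.3 in the others. On the scale over 16 libraries, Chst11 (90.2 to 188 CPM) and Xylt1 (46.2 to 113) lay higher upstream than in HEC. Slc26a2 (104 to 165 upstream) overlapped HEC, and Chst3 (14.8 to 33.8 upstream) lay below it.

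Cell surface proteins that bind hedgehog ligands were also among the HEC-high genes. Hhip, the hedgehog-interacting protein, stood at 190 and 181 CPM in HEC, 125 and 152 in 6C3 and 38.5 to 50.6 in the others. Cdon stood at 110 and 88.2 CPM in HEC, 66.0 and 79.0 in 6C3 and 15.7 to 53.9 in the others, and Gas1 at 779 and 844, 444 and 628, and 232 to 503. Trpv4, an ion channel that responds to stretch and osmolarity, stood at 496 and 565 CPM in HEC, 452 and 483 in 6C3 and 71.9 to 146 in the rest.

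Genes better known from epithelia were among the HEC-high genes. Sfn, 14-3-3 sigma, stood at 935 and 991 CPM in HEC, 841 and 846 in 6C3 and 95.5 to 209 elsewhere. Krt16 was at 27.6 and 24.3 CPM in HEC, 4.29 and 13.5 in 6C3 and 1.18 to 7.74 in the Thy1+ populations. In the same order, Perp stood at 98.8 and 93.0, 38.1 and 74.7, and 6.46 to 32.1 CPM. Epcam stood at 28.2 and 30.6, 18.6 and 23.2, and 3.51 to 19.3. None of these genes passed against 6C3 alone by edgeR. On the scale over 16 libraries, Krt16 (16 to 56.3 CPM) and Epcam (22.5 to 50.1) upstream overlapped HEC. Perp (18.3 to 33.5) and Sfn (60.7 to 212) lay below it there.

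Hox genes, grouped after seeing values, differed by paralog number. Of 15 tested genes of paralogs 9 to 13, 5 were higher in HEC and none lower, with a median log2 fold change of 0.93. Of 21 of paralogs 1 to 8, none was higher and 6 were lower, with a median of −1.47. Over all genes tested 5.15% were higher and 5.47% lower. Against 6C3 alone the 5 higher genes did not pass by edgeR, with log2 fold changes from −0.24 (Hoxd9) to 0.73 (Hoxa13). The 6 lower genes did not pass against 6C3 either, and Hoxb2, Hoxb5 and Hoxb7 had at most 8 counts in an HEC library. Hoxa11 stood at 19.5 and 22.7 CPM in HEC, 20.5 and 22.7 in 6C3 and 2.48 to 4.99 in the Thy1+ populations; its reads cannot be told apart from those of the antisense gene Hoxa11os. Hoxc5 stood at 0.814 and 0.712 CPM in HEC, 1.53 and 1.90 in 6C3 and 4.27 to 6.72 in the others.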
